A study of Sus scrofa with 4 samples.

Results

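Smooth muscle and actin genes were followed in the ileum of suckling piglets that had gained little or much weight. The set comprised 8 genes, *MYLK*, *CNN1*, *TPM2*, *DES*, *ACTA1*, *ACTA2*, *TAGLN* and *MYL9*, and its members were all array probes whose RefSeq transcript belongs to one of these pig genes. In all, 32 of 43603 probes met this rule, of which 16 read *ACTA1*, 5 read *TPM2*, 4 read *DES*, 4 read *ACTA2*, 2 read *CNN1* and 1 read *MYLK*. No probe was matched to *TAGLN* or *MYL9* through a RefSeq accession, and these 2 genes are not analysed here. A probe is a short synthetic DNA strand fixed to a glass slide, and its fluorescence reports how much labelled RNA bound to it.

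The low-gain group consisted of 2 RNA samples, each a pool from 2 piglets, and the high-gain group of 2 RNA samples, each a pool from 3 piglets. All piglets were 16 days old, were nursed by Yorkshire × Landrace sows and had Duroc sires, so that the groups shared breed and age. Milk intake was not compared here. The labels tell the 2 samples of a group apart by the letters a and b, and do not say whether these were separate pools or repeat measurements, so every p-value measures the spread between arrays only. The series' design text describes the contrast as one of birth weight, whereas the sample labels name weight gain, which was followed here. Each sample was hybridised to 1 array, all 4 arrays lay on 1 slide, and between 32835 and 33972 of 43803 non-control spots per array were well above background.

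Contraction of the gut wall depends on filaments of actin and myosin in the smooth muscle layers. Calcium entering a muscle cell binds calmodulin, which switches on myosin light chain kinase, and the kinase phosphorylates the regulatory light chain of myosin so that it can pull on actin. Tropomyosin and calponin lie along the actin filament, and desmin forms the intermediate filaments that tie the contractile apparatus together. Mammals have several actin genes whose proteins are nearly identical, each used mainly in one kind of muscle or in non-muscle cells, and alpha-skeletal actin, encoded by *ACTA1*, is typical of skeletal muscle rather than of the gut wall.

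On every one of the 4 arrays, all 32 probes stood well above background. Levels are given as normalised log2 signal, the log2 of the scanner's processed signal minus the 75th percentile of that array, so that 0 is the level of the 75th percentile and a difference of 1 is a doubling. Signals of different probes are not comparable amounts of RNA, and only the same probe was compared between arrays. Of the 32 probes, 31 entered the limma test, and the remaining one, of *DES*, was left out because the scanner software marked its spot on low-gain array a as an outlier. Past an adjusted p of 0.05 over all tested probes lay 1 of the 31, an *ACTA1* probe that rose in low gain, whereas 80 of all 33265 tested probes (0.24%) passed, 32 (0.0962%) of them higher and 48 (0.144%) lower in low gain. The members' median log2 change was 0.45, against 0.02 over all tested probes. In 20 of the 31 the low-gain mean was the higher one, which was so for 52.7% of all tested probes. Both low-gain arrays lay above both high-gain arrays in 19 of the 31 (27.6% of all tested probes), and below both in 7 (26.9%). The 31 probes read 6 genes, with 16 probes on *ACTA1*, so these counts hold repeat readings of the same genes.

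*MYLK*, the gene for myosin light chain kinase, was read by probe A_72_P505402. Its normalised log2 signal was 2.34 and 2.27 on low-gain arrays a and b, against 1.70 and 1.79 on high-gain arrays a and b. Both low-gain arrays lay above both high-gain arrays, and the nearest values of the groups were 0.48 apart. The log2 change was 0.56 ± 0.11 (SE, n = 2 arrays per group), a 1.48-fold higher signal in low gain that did not pass the test (limma adjusted p = 0.170). It was the only probe of this gene, so no second reading of the kinase was at hand.

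*CNN1* encodes calponin 1, an actin-binding protein of differentiated smooth muscle that damps the activity of myosin on actin. Probe A_72_P035636 gave 6.05 and 6.16 in low gain, against 5.59 and 5.66 in high gain. Probe A_72_P441684 gave 3.24 and 3.09 in low gain, against 2.70 and 2.72 in high gain. The probes differed by almost the same amount between groups, with log2 changes of 0.48 ± 0.11 and 0.45 ± 0.11, and neither passed the test (limma adjusted p = 0.192 and 0.198).

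*TPM2*, the gene for beta-tropomyosin, was read by 5 probes, and each had both low-gain arrays above both high-gain arrays. The brightest, A_72_P586401, gave 5.02 and 4.97 in low gain, against 4.53 and 4.55 in high gain. Its log2 change was 0.45 ± 0.10, equal to a 1.37-fold higher signal (limma adjusted p = 0.188). Of the other 4 probes, 3 lay close to it with log2 changes of 0.48, 0.49 and 0.50. The probe A_72_P600482 gave a smaller log2 change, 0.25 ± 0.10, from 2.86 and 2.85 in low gain and 2.67 and 2.56 in high gain. None of the 5 passed the test, with adjusted p-values from 0.185 to 0.317.

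*DES*, the gene for desmin, did not give one answer across its 4 probes. The brightest, A_72_P177466, gave 7.38 and 7.33 in low gain, against 6.81 and 6.87 in high gain, a log2 change of 0.51 ± 0.10 without passing the test (limma adjusted p = 0.176). The other probes did not separate the groups. A_72_P684426 gave 2.36 and 2.41 in low gain, against 2.64 and 2.18 in high gain. A_72_P350098 gave -0.07 and -0.10 in low gain, against 0.64 and -0.13 in high gain. In both, high-gain array a was the highest of the 4 and high-gain array b the lowest, and the log2 changes were -0.02 ± 0.19 and -0.34 ± 0.29. The probe left out of the test, A_72_P601893, gave 1.90, on the spot marked as an outlier, and 2.36 in low gain, against 2.49 and 2.16 in high gain. Averaged over its 3 tested probes, *DES* had a log2 change of 0.05 ± 0.17 (limma adjusted p = 0.892).

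**Figure D1:**
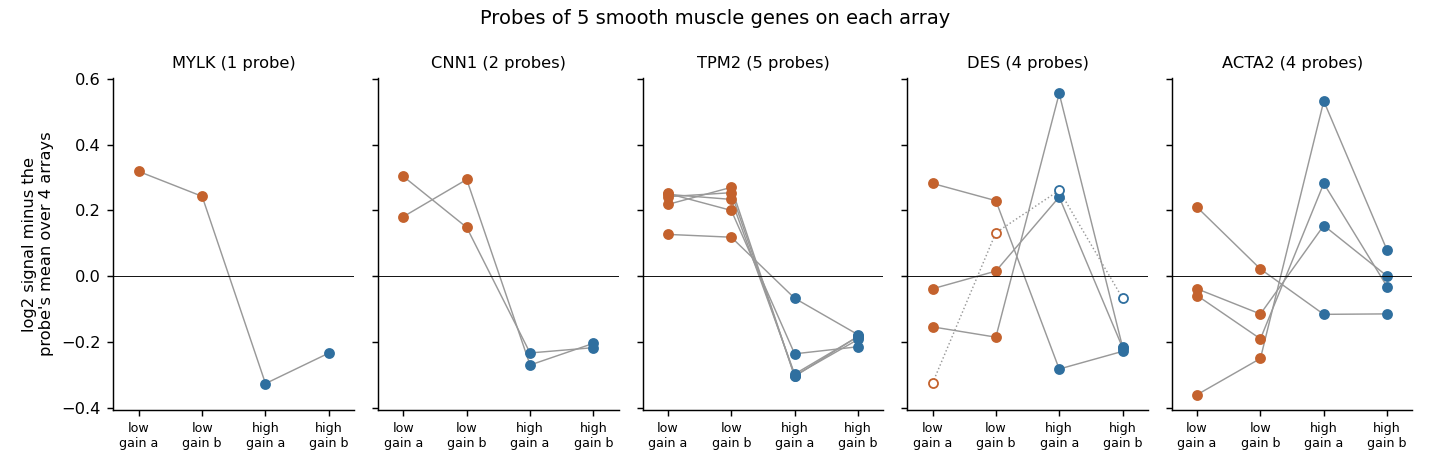
Normalised log2 signal of each *MYLK*, *CNN1*, *TPM2*, *DES* and *ACTA2* probe on the 4 arrays (x axis), with the probe's own mean over the arrays subtracted (y axis, log2), so that only differences between arrays show. Lines join the values of 1 probe, low-gain arrays are orange and high-gain arrays blue, and open circles with a dotted line mark the *DES* probe left out of the test. All *MYLK*, *CNN1* and *TPM2* probes lie above 0 on both low-gain arrays and below 0 on both high-gain arrays, while *DES* and *ACTA2* probes split.

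*ACTA2* encodes alpha-smooth muscle actin, the actin of vascular smooth muscle that myofibroblasts also make. Of its 4 probes, 3 had lower means in low gain and 1 had a higher mean, and none passed the test (limma adjusted p from 0.236 to 0.507 for the lower ones and 0.373 for the higher one). The brightest, A_72_P521843, gave 5.24 and 5.11 in low gain, against 5.58 and 5.27 in high gain. Its groups were separated by only 0.03, and the log2 change was -0.25 ± 0.15.

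The widest difference among the *ACTA2* probes was at A_72_P529904, with 1.33 and 1.44 in low gain, against 2.22 and 1.77 in high gain, a log2 change of -0.61 ± 0.19. A_72_P627171 gave 4.47 and 4.39 in low gain, against 4.66 and 4.50 in high gain, a log2 change of -0.15 ± 0.11. Opposite to these 3 was A_72_P678849, with 5.47 and 5.28 in low gain, against 5.14 and 5.14 in high gain, a log2 change of 0.23 ± 0.12. The groups did not overlap in any of the 4 probes, in either direction, which was so for 54.5% of all tested probes.

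*ACTA1* was read by 16 probes that all carry the same RefSeq accession, and they fell into 2 sets by the size of their difference. In 7 probes the low-gain mean was at least 1 log2 unit above the high-gain mean, and in the other 9 the log2 changes ran from -0.87 to 0.58. The division at 1 was made after the values were seen and is a description. Over all tested probes, 1.21% had a mean at least 1 log2 unit higher in low gain.

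The 7 *ACTA1* probes with the large difference were close to each other, with log2 changes of 1.35 to 1.54 (median 1.42), or 2.56-fold to 2.91-fold higher signal in low gain. With normexp background correction of the median signal in place of the processed signal, the 7 log2 changes were 0.54 to 0.70, and they were 0.96 to 1.16 once unusually bright spot backgrounds were replaced. A_72_P736997 gave -0.84 and -0.93 in low gain, against -2.43 and -2.42 in high gain. Before normalisation its processed signal was 229 and 244 in low gain, against 89.9 and 87.9 in high gain. It rose by 1.54 ± 0.10 (SE, n = 2 arrays per group) and was the only member past the test (limma adjusted p = 0.0467). The other 6 did not pass, with adjusted p-values of 0.055 to 0.110. In each of the 7, the low-gain array with the lower value stood at least 1.14 above the high-gain array with the higher value. Gaps between arrays of 1 group were 0.02 to 0.28 in low gain and 0.00 to 0.28 in high gain. The 7 were picked for their large mean difference, so part of that distance follows from the choice.

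Values of the other 6 probes of that set followed the same course. A_72_P733933 gave 0.13 and 0.16 in low gain, against -1.30 and -1.15 in high gain. A_72_P719238 gave -1.04 and -0.97 in low gain, against -2.40 and -2.37 in high gain. A_72_P248052 gave -1.01 and -0.95 in low gain, against -2.47 and -2.33 in high gain. For these 3, the arrays of a group differed by at most 0.15, less than the distance between groups. A_72_P720293 gave -0.93 and -0.91 in low gain, against -2.49 and -2.21 in high gain. A_72_P755249 gave -0.69 and -0.51 in low gain, against -1.95 and -2.11 in high gain. A_72_P764598 gave -0.58 and -0.31 in low gain, against -1.88 and -1.72 in high gain. These 3 varied more between arrays of 1 group, and their adjusted p-values in limma were 0.0903, 0.0807 and 0.110.

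The remaining 9 *ACTA1* probes did not show that difference. The brightest of all 16, A_72_P733238, which stands for the gene where 1 probe is used, gave 6.66 and 6.61 in low gain, against 6.32 and 6.34 in high gain. Its log2 change was 0.30 ± 0.10, and it did not pass the test (limma adjusted p = 0.249). A_72_P762162 was also higher on both low-gain arrays, with 2.69 and 2.45 in low gain, against 1.92 and 2.06 in high gain. A_72_P727093 hardly differed, with 2.37 and 2.33 in low gain, against 2.36 and 2.31 in high gain.

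In the other 6 *ACTA1* probes the low-gain mean was the lower one. The widest of these differences was at A_72_P790124, with -1.41 and -1.31 in low gain, against -0.17 and -0.82 in high gain, a log2 change of -0.87 ± 0.25 (limma adjusted p = 0.224). Next was A_72_P723131, with 3.20 and 3.33 in low gain, against 4.36 and 3.79 in high gain, a log2 change of -0.81 ± 0.23 (limma adjusted p = 0.216). For the last 4, A_72_P790187, A_72_P712823, A_72_P763429 and A_72_P728918, the log2 changes were -0.22, -0.20, -0.08 and -0.08. High-gain array a was the highest of the 4 arrays in each of these 6 probes.

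**Figure D2:**
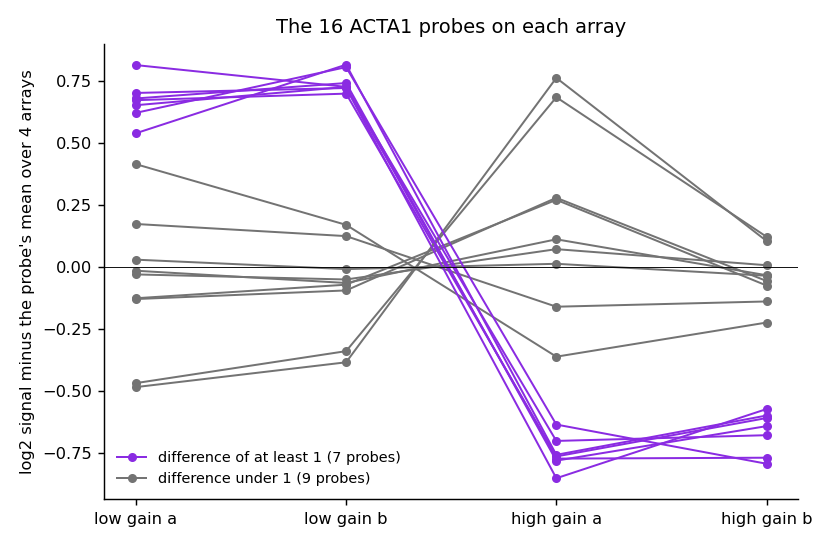
Normalised log2 signal of the 16 *ACTA1* probes on the 4 arrays (x axis), with each probe's mean over the arrays subtracted (y axis, log2). Purple lines are the 7 probes with a log2 change of at least 1, which run together, and grey lines are the 9 others, of which 6 have a lower mean in low gain and peak on high-gain array a.

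The 2 sets of *ACTA1* probes also differed in how bright they were. The group means of the 7 probes ran from -1.01 to 0.15 in low gain and from -2.42 to -1.22 in high gain, in normalised log2 signal. Those of the other 9 ran from -1.36 to 6.63 in low gain and from -0.50 to 6.33 in high gain, so that 1 of the 9, A_72_P790124, was as dim as the 7 and differed the other way. Between its lowest and highest probe, *ACTA1* spanned 2.41 log2 units, the fourth widest of 313 genes with at least 4 tested probes, whose median span was 0.42. By comparison, *ACTA2* spanned 0.84 and *TPM2* spanned 0.25. Actin transcripts share long stretches of nearly identical sequence, and a probe in such a stretch can bind RNA of several actin genes, so the values of these genes are uncertain in that respect. The probe sequences were not used here, and the share of each gene in a probe's signal was not tested.

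**Figure D3:**
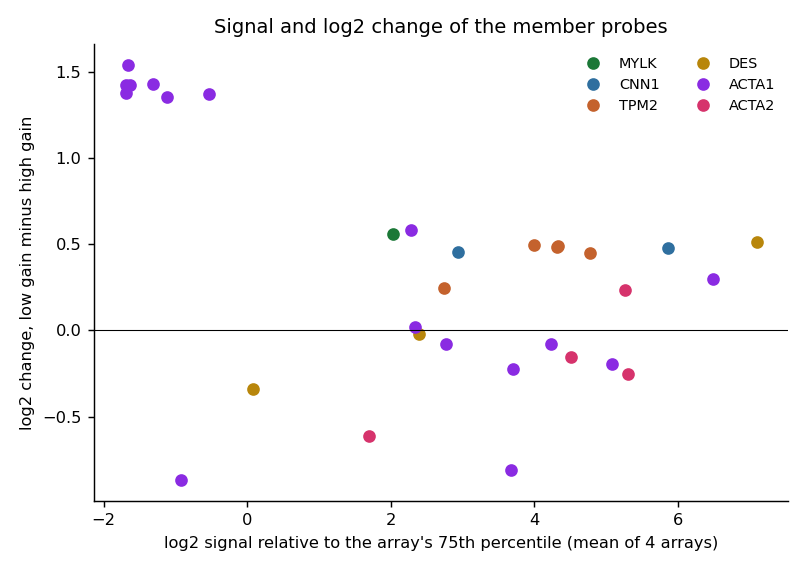
Mean normalised log2 signal over the 4 arrays (x axis) and log2 change, low gain minus high gain (y axis), for the 31 tested probes, coloured by gene. The 7 *ACTA1* probes with log2 changes of 1.35 to 1.54 stand apart at the upper left, and the brightest *ACTA1*, *DES* and *CNN1* probes lie at the right with log2 changes of 0.30, 0.51 and 0.48.

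Cardiac alpha-actin, encoded by *ACTC1*, is the closest relative of *ACTA1* with probes named here, and its 3 probes also differed among themselves. Its brightest probe, A_72_P444505, gave 5.21 and 5.33 in low gain, against 5.64 and 5.36 in high gain, a log2 change of -0.23 ± 0.15. A_72_P751785 gave 1.84 and 1.91 in low gain, against 1.29 and 1.20 in high gain, a log2 change of 0.63 ± 0.10. The third probe differed by 0.13 ± 0.11, and none of the 3 passed the test (limma adjusted p from 0.161 to 0.549).

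Lower means in low gain went with high values on high-gain array a. In all 11 member probes with a lower mean in low gain, 6 of *ACTA1*, 3 of *ACTA2* and 2 of *DES*, the highest of the 4 values was on high-gain array a, which was so for 52.5% of all tested probes with a lower mean. Without that array, 9 of the 11 kept a lower mean in low gain, with differences for all 11 from -0.54 to 0.21, and in 7 of them both low-gain arrays lay below high-gain array b. The 2 that turned were the *DES* probes, A_72_P684426 at 0.21 and A_72_P350098 at 0.05. Among the 20 probes with a higher mean in low gain, the highest value was on low-gain array a in 11 and on low-gain array b in 9.

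**Figure D4:**
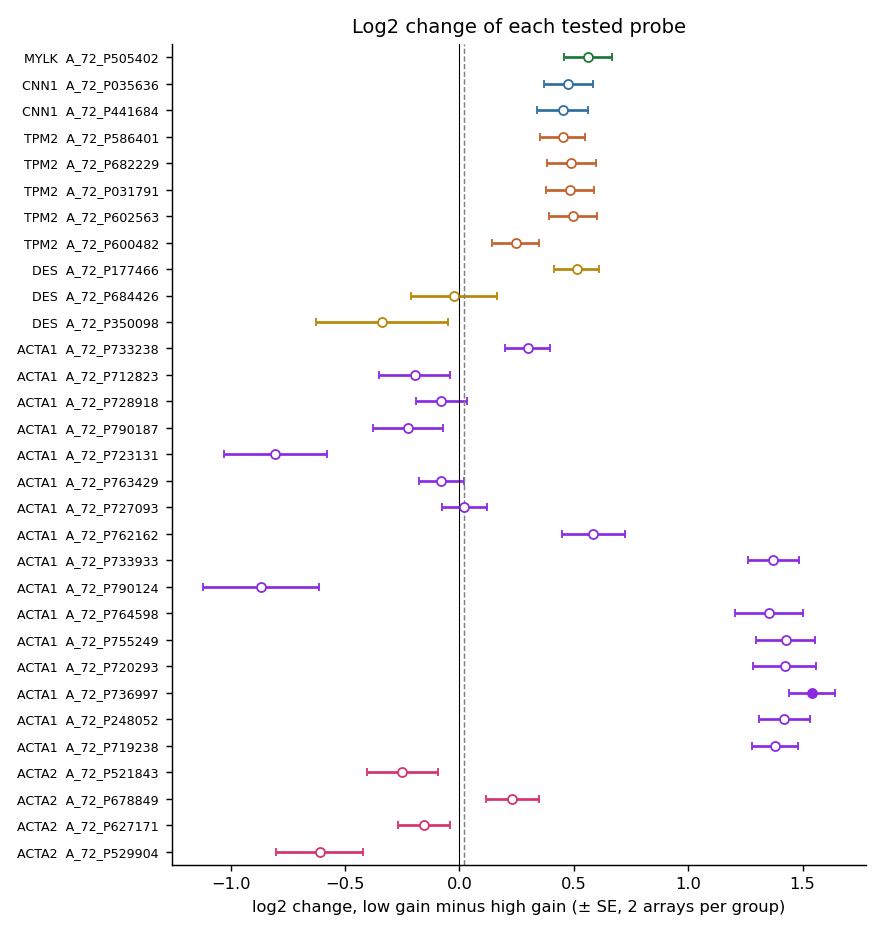
Log2 change, low gain minus high gain (x axis), of the 31 tested probes, grouped by gene and ordered by brightness within a gene. Bars are standard errors of the limma fit with 2 arrays per group, the filled circle is the 1 probe past the test, the solid line is 0 and the dashed line is the median over all tested probes, 0.02. The *MYLK*, *CNN1* and *TPM2* probes cluster between 0.25 and 0.56, and the *ACTA1* probes spread from -0.87 to 1.54.

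The count of members past the test depended on how the spread was estimated. When the prior variance followed signal intensity, 16 of the 31 member probes rose and 0 fell, against 2.26% of all tested probes that rose and 1.50% that fell in that fit. The 16 were the *MYLK* probe, both *CNN1* probes, 4 of 5 *TPM2* probes, the brightest *DES* probe and 8 *ACTA1* probes. These 8 were the 7 with the large difference and A_72_P762162. Probes of the same gene are repeat readings, so the 16 are not separate results. The shares over all tested probes were not matched for brightness. No *ACTA2* probe passed in either fit. Without low-gain array a, the same fit called 6 member probes, all of *ACTA1*. In the fit without the trend, no member probe passed the limma test once any 1 of the 4 arrays was left out, which leaves 1 group with a single array.

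With the brightest probe standing for each gene, 5 of the 6 measured genes had a higher mean in low gain, as had 53.4% of named genes, and *ACTA2* had a lower one. The median log2 change of the 6 was 0.46, against 0.02 over 2158 named genes. In these 5, both low-gain arrays lay above both high-gain arrays (32.6% of named genes), and in *ACTA2* they lay below (29.2%), so that the groups did not overlap for any of the 6, as for 61.8% of named genes. None of the 6 passed the limma test, against 9 of 2158 (0.417%). At an unadjusted p under 0.05 there were 5 of the 6, as were 21.6% of named genes, and with the intensity trend 4 rose (*MYLK*, *CNN1*, *TPM2* and *DES*), where 5.19% of named genes rose. *DES* is counted here by its brightest probe, and its 2 other tested probes had lower means in low gain. Of the 16 *ACTA1* probes, 6 had lower means as well.

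Other genes of the contractile apparatus mostly had higher means in low gain as well. Of 46 listed smooth muscle genes, 16 were measured, among them neither *MYH11* nor *ACTG2*, whose products define mature gut smooth muscle. Of the 16, the mean was higher in low gain for 14 and lower for 2, and their log2 changes had a median of 0.30 (range -0.52 to 0.62). None passed the limma test, 6 had an unadjusted p under 0.05 (21.6% of named genes had), and with the intensity trend 1 rose (5.19% of named genes rose). That 1, also the gene with the largest log2 change, was *PPP1R14A*, which encodes an inhibitor of myosin phosphatase, with 3.38 and 3.28 in low gain, against 2.59 and 2.83 in high gain, a log2 change of 0.62 ± 0.13. *DMD*, the dystrophin gene, had a log2 change of 0.60 ± 0.10 on its brightest probe and -0.17 to 0.25 on its 3 others.

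Both other named genes of that list were bright. *MYL6*, the gene for an essential myosin light chain, gave 7.86 and 7.87 in low gain, against 7.40 and 7.64 in high gain, a log2 change of 0.35 ± 0.13, and all 4 of its probes were higher in low gain. *VCL*, the gene for vinculin, which links actin to the cell membrane, had a log2 change of 0.37 ± 0.12 on its brightest probe and -0.15 to 0.51 on its 3 others. The 3 genes of the list with the most tested probes, chosen after their values were seen, did not go one way. All 21 probes of *TPM1*, the gene for alpha-tropomyosin, were higher on both low-gain arrays, with log2 changes of 0.13 to 0.42. So were all 6 of *PLN*, the gene for the calcium pump regulator phospholamban, at 0.41 to 0.67. Of all tested probes, 27.6% were higher on both low-gain arrays, and probes of the same gene are repeat readings, not separate results. Of the 10 probes of *PPP1CB*, the gene for a catalytic subunit of myosin phosphatase, 3 had a higher and 7 a lower mean in low gain, and the log2 changes spanned -0.46 to 0.15.

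Of the striated muscle genes 21 were measured, and the low-gain mean was higher for 15 and lower for 6 (higher for 53.4% of named genes). Their log2 changes had a median of 0.13, against 0.02 over named genes, and 0 passed the limma test. At an unadjusted p under 0.05 there were 4 (21.6% of named genes). With the intensity trend 1 rose, *CKM* (5.19% of named genes rose). *MYH2*, a fast skeletal myosin gene, had the largest log2 change at 0.73 ± 0.14. Its probe was dim, with -5.42 and -5.33 in low gain, against -5.96 and -6.24 in high gain. *MYOZ1* had 0.67 ± 0.14 on its brightest probe, with -4.47 and -4.31 in low gain, against -4.94 and -5.18 in high gain. The other 2 *MYOZ1* probes, dimmer still, gave 0.16 ± 0.34 and -1.61 ± 0.36. At -1.61, both low-gain arrays lay below both high-gain arrays. *TPM3*, the gene for a tropomyosin of slow muscle and of many other cells, had a log2 change of -0.10 ± 0.14 on its brightest probe and -0.43, -0.39 and -0.33 on its 3 others, each of these with both low-gain arrays below both high-gain arrays. The summed signal of the list, relative to the 75th percentile, was 82.3 and 81.7 in low gain, against 91.6 and 79.5 in high gain. The groups overlapped in that sum, but it mainly follows the bright probes of *ACTC1*, *TPM3* and *CKM*. It says little about the dimmer genes of the list. Sums given for this and later lists add signals of different probes, which are not comparable amounts of RNA.

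Non-muscle actin partners had a median log2 change of -0.11 over 15 measured genes, of which 7 were higher and 8 lower in low gain. None passed the limma test, and 2 had an unadjusted p under 0.05 (21.6% of named genes had). With the intensity trend 1 fell, *ARPC1B* (2.69% of named genes fell). *ARPC1B*, which encodes a subunit of the complex that branches actin filaments, was the lowest, with 2.39 and 2.49 in low gain, against 3.54 and 3.15 in high gain, a log2 change of -0.91 ± 0.17 (limma adjusted p = 0.174), and its 3 other probes were lower still, down to -1.03. *DSTN*, the gene for the actin-severing protein destrin, had a log2 change of 0.37 ± 0.11, while the brightest, *TMSB10*, a thymosin gene, and *CFL1*, the cofilin 1 gene, had 0.08 ± 0.10 and 0.01 ± 0.10.

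Markers of other cell types of a gut slice differed between lists. By their brightest probes, all 7 measured epithelial genes were higher on both low-gain arrays (32.6% of named genes), with log2 changes of 0.16 to 0.68 and a summed signal of 414 and 424 in low gain, against 294 and 311 in high gain. Of these, *ANPEP*, a brush-border peptidase gene, had 0.68 ± 0.10 (0.55 and 0.14 on its other probes), *CDH1*, the E-cadherin gene, had 0.58 ± 0.10 (0.27 on its other probe), and *KRT8*, a keratin gene, had 0.44 ± 0.10 (0.34 and -0.30 on its other probes). None of the 7 passed the limma test, 5 had an unadjusted p under 0.05, and 4 rose with the intensity trend (21.6% and 5.19% of named genes). The summed signal of the 16 other smooth muscle genes was 310 and 313 in low gain, against 230 and 264 in high gain. That sum mainly follows *MYL6*, by far the brightest of the 16, and says little about the others. Each of the 7 stood well above background on every array, including *FABP2*, an intestinal fatty acid binding protein gene named here to check the tissue label. Their part in the smooth muscle values was not tested. In whole tissue slices, more smooth muscle cells and more RNA per cell cannot be told apart.

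Of fibroblast genes 3 were measured, with *SPARC* at 0.52 ± 0.13 and *DCN* at 0.46 ± 0.16 higher, and *THY1* at -0.51 ± 0.19 lower in low gain. Of the 7 *SPARC* probes, 5 had a higher and 2 a lower mean in low gain, the lower ones at -0.25 and -0.16. All 4 *DCN* probes were higher. The summed signal of the 3 genes was 121 and 109 in low gain, against 75.1 and 89.1 in high gain. That sum mainly follows *SPARC* and *DCN*. *KIT*, which marks the pacemaker cells of the gut muscle, had a log2 change of -0.02 ± 0.12, and *RGS5*, a pericyte gene, had -0.0050 ± 0.11. Of neuronal and glial genes 4 were measured, among them *CHAT* at -0.33 ± 0.50, *UCHL1* at 0.11 ± 0.17 and *SOX10* at 0.38 ± 0.33. Endothelial genes (6 measured) ran from -0.16, at *PECAM1*, to 0.54, at *EDN1*, with *ENG* at 0.28. None of these genes passed the limma test. At an unadjusted p under 0.05 there were 3, namely 2 of fibroblasts and 1 of endothelium (21.6% of named genes). With the intensity trend 1 rose, *SPARC* (5.19% of named genes rose).

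Fat cell and leukocyte genes went in both directions. Among 7 fat cell genes, 4 were higher and 3 lower in low gain. The lowest were *PLIN1* at -1.63 ± 0.55 (well above background on 3 of 4 arrays) and *FABP4* at -1.55 ± 0.12, with *LPL* at 0.20 ± 0.11. The summed signal was 4.33 and 3.55 in low gain, against 5.42 and 5.64 in high gain. The difference in that sum mainly follows *FABP4*, with 0.04 and 0.08 in low gain, against 1.53 and 1.70 in high gain. It says little about the other fat cell genes. Among 9 leukocyte genes, 4 were higher and 5 lower. They ran from *CD74* at -0.43 (-0.80 on its other probe) to *CD8A* at 0.95 (0.03 on its other probe), with *ITGB2* at -0.10 and *CD3E* at 0.53. The summed signal was 51.5 and 48.9 in low gain, against 60.2 and 60.8 in high gain. Much of that sum is *CD74*, the brightest of the 9. No gene of these lists passed the limma test. At an unadjusted p under 0.05 there were 3 and 4 (21.6% of named genes). With the intensity trend 1 fat cell gene fell, and 1 leukocyte gene rose and 1 fell. Of named genes, 5.19% rose and 2.69% fell in that fit. The part of these lists in the values of the actin genes was not tested.

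**Figure D5:**
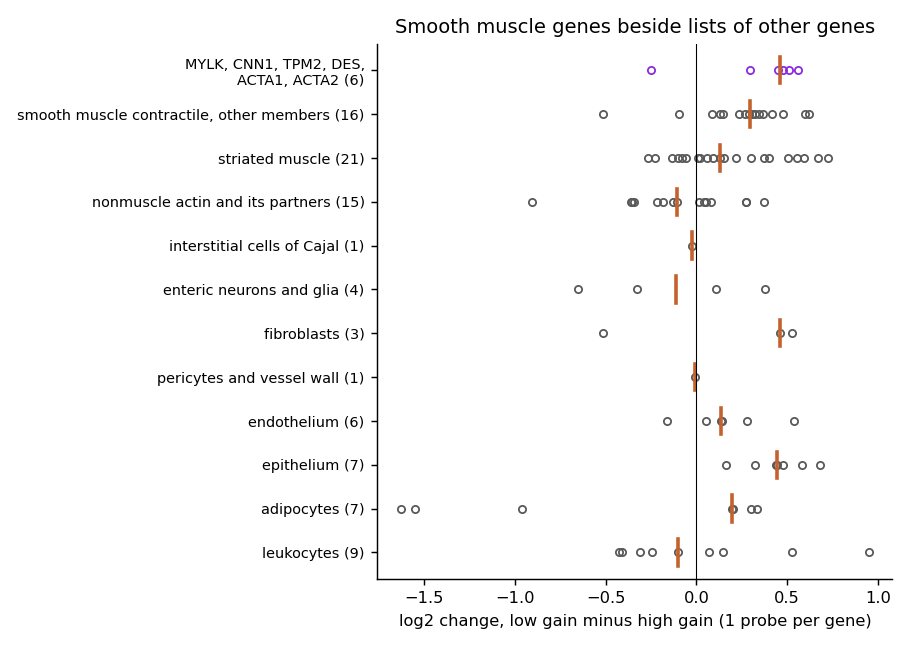
Log2 change, low gain minus high gain (x axis), of each measured gene, 1 probe per gene, for the 6 smooth muscle and actin genes (top row) and for 11 lists of other genes (number measured in brackets). Circles are genes and orange bars are medians. Medians lie above 0 for the 6 genes (0.46), other smooth muscle (0.30), striated muscle (0.13), fibroblast (0.46), endothelial (0.14), epithelial (0.44) and fat cell (0.20) genes, and below 0 for the other 5 lists, among them non-muscle actin partners (-0.11).

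Likeness was measured as the Euclidean distance between profiles over the 4 arrays, each gene's mean subtracted, from the mean profile of the 6 genes, which stood at 0.19 and 0.15 in low gain and at -0.17 and -0.18 in high gain. Of the named genes outside the set, the nearest included *CIDEC* (distance 0.0509), *TLR2* (0.0519), *AKAP2* (0.0523) and *SERPINA1* (0.0640). The 6 genes are part of that mean profile themselves, and of 2158 genes *ACTA1* ranked 2nd, *TPM2* 60th, *DES* 207th, *CNN1* 216th, *MYLK* 381st and *ACTA2* 1622nd. With 4 arrays, this ranking describes these samples only.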

How the data were processed

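RNA from 4 pooled ileum samples, 2 low gain and 2 high gain, was labelled with Cy3 and hybridised to 1-colour Agilent pig arrays. Spot intensity values in the deposited files came from Agilent Feature Extraction 10.7.3.1, according to the headers, and the processed signal is background-treated on a linear scale, per the file headers. A table of log2 values deposited by the authors served as an alternative only, since how they were normalised is not given here. Its slopes against log2 processed signal were 1.01 on each array, and its column medians were 5.62 and 5.59 in low gain and 5.67 and 5.60 in high gain.

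The log2 processed signal was set relative to the array's own 75th percentile, taken without control spots. Outlier-flagged spots were left out, which dropped 48 probes. Probes well above background on both arrays of at least 1 group were tested (33265), and no non-control spot was saturated. The fit used limma 3.58.1 (lmFit, eBayes) under R 4.3.3 for low gain minus high gain, adjusted by Benjamini-Hochberg at a threshold of 0.05, and was tested on simulated data. Errors are standard errors of the fit, and the number of arrays limits their precision.

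Names came from RefSeq accessions, matched for 5461 of 5779 probes to NCBI's table for Sscrofa11.1, giving 2389 genes. No build is named in the files, and coordinates are left out. The brightest tested probe stood for a gene. For each list, genes named were the 2 brightest and the 2 of largest log2 change, or all where 4 or fewer were measured. Some genes that this rule or the likeness ranking would name are not reported here. Members, lists and tests were chosen with earlier results of these data known. Alternatives covered background correction, normalisation, filters, the prior variance, the letter as a block and leaving out each array.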

Additional observations from a re-analysis of the deposited data

How the results depend on the processing

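Of the 31 tested member probes, 29 to 31 kept the direction of their log2 change in each alternative, which the filters, the intensity trend and the letter block leave as it is. *ACTA1* A_72_P727093 turned to -0.0038 with normexp background correction, -0.0067 with normexp and bright backgrounds replaced, -0.0016 with quantile normalisation, -0.027 with the authors' deposited values and between -0.0023 and 0.046 without 1 high-gain array. Without 1 array, *DES* A_72_P350098 ranged from -0.73 to 0.046 and A_72_P684426 from -0.25 to 0.21, both turning without high-gain array a, and A_72_P684426 also without low-gain array a (0.0037, with or without the intensity trend). The number of member probes past the test, 1 as reported, was 16 with the intensity trend (6 without low-gain array a), 5 with median centring, 7 with normexp and bright backgrounds replaced, and 0 with plain normexp, no filter on dim probes, signal required on all 4 arrays, or the letter as a block, with 0, 19, 20 and 18 at an unadjusted p under 0.05. Leaving out 1 array gave 0. Quantile normalisation and the authors' deposited values gave 1 each. In the fit as reported, 20 of the 31 had an unadjusted limma p under 0.05, against 6117 of all 33265 tested probes.

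Over the whole array the count of 80 (32 higher, 48 lower) was 1250 with the intensity trend (751 higher, 499 lower), 197 with the trend but without low-gain array a, 163 with median centring, 483 with normexp and bright backgrounds replaced, 12 with no filter, and 0 with plain normexp, with signal on all 4 arrays and with the block, where 0, 6071 and 4703 had an unadjusted limma p under 0.05. Without 1 array it was 0 to 37, being 0 without either high-gain array (3071 and 5662 at an unadjusted p under 0.05). The a minus b differences of the groups correlated at -0.04 across tested probes, so no difference shared by arrays of one letter was seen. With 1 difference per group, that value cannot show whether the pools or arrays were prepared in pairs. The median over the 6 genes, 0.46, was 0.43 with plain normexp, 0.48 with bright backgrounds replaced, 0.43 with quantile normalisation and 0.44 to 0.49 without 1 array. The called *ACTA1* probe A_72_P736997 kept its sign, at 0.57 with plain normexp and 1.50 to 1.58 without 1 array. Its limma adjusted p was 0.0575 with signal on all 4 arrays, 0.153 with no filter, 0.325 with the block and 0.0988 to 0.504 without 1 array. The cause of these shifts was not tested. Chosen after seeing the data were the replacement of bright backgrounds and the trend without low-gain array a. Array a of low gain and array b of high gain each held 22 spots with such backgrounds, none of them a member's.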
